A study of Mus musculus with 6 samples.

Results

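Cd69, S1pr1, Klf2, Cxcr6, Itgae, Itga1 and Rgs1 are genes that decide whether a T cell stays in a tissue or returns to the lymph and blood. They were taken by name from a table of 23505 gene rows, all 7 were found, and all 7 had enough reads to be among the 10509 genes tested. They were selected on earlier fold changes and CPM of this same comparison, Cd69 above all, so their values are given as a description and not as an independent test. RNA was sequenced from liver CD4+ T cells of wild type mice in 2 groups of 3 samples. The ConA+SIM mice were gavaged with simvastatin, a statin that blocks HMG-CoA reductase and so the mevalonate pathway, at 30 mg/kg. The ConA mice were gavaged with phosphate-buffered saline. Both groups were injected with ConA, concanavalin A, a lectin from jack beans that stimulates T cells and causes hepatitis. Doses were given daily over the preceding 5 days, then 1 h ahead of the injection, and finally 24 h later. Every library is thus from an inflamed liver, and no sample from an untreated liver was analysed here. Cells were sorted as CD3-positive, CD4-positive, CD8-negative and NK1.1-negative. Whether a sample is 1 mouse or a pool is not stated in the labels, so the spread between samples may be partly technical.

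T cells leave tissues by following sphingosine-1-phosphate, a lipid that is abundant in lymph and blood and that they sense with the receptor S1PR1. The transcription factor KLF2 switches on S1pr1. CD69, which appears on T cells within hours of activation, binds S1PR1 and takes it off the cell surface, so the cell is held back. Cells that stay in the liver for long carry CXCR6, the receptor for the chemokine CXCL16 on sinusoidal endothelium, and the collagen-binding integrin alpha 1 chain (Itga1, CD49a). The alpha E chain (Itgae, CD103) binds E-cadherin on epithelium, and RGS1 shortens signals of chemokine and S1P receptors.

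Libraries held 17549429 to 20441213 counts in ConA+SIM and 18360352 to 25031862 in ConA. Levels are in CPM, counts scaled to a common library size with a correction for composition. A gene with 0 counts could still stand at up to 0.147 to 0.171 CPM in ConA+SIM and 0.120 to 0.163 CPM in ConA, from 3 counts and counting error only. The share of tested genes without a count was 18.4% in ConA+SIM replicate 2 and 2.76% to 9.98% elsewhere. Ribosomal protein genes took 14.6% to 16.7% of counts in ConA+SIM and 8.77% to 10.4% in ConA. Summed neutrophil markers were 583 to 948 CPM in ConA+SIM and 276 to 480 CPM in ConA, with Ly6g at 0 throughout. That difference lay in S100a8 and S100a9, since of 6 tested neutrophil markers 3 had positive and 3 negative fold changes (median 0.059). Summed erythroid and platelet markers were 229 to 343 CPM in ConA+SIM and 47.8 to 115 CPM in ConA, with 5 of 5 tested markers positive. Of the 5, only Hbb-bs passed (log2 fold change 2.07 ± 0.36, edgeR adjusted p = 0.0462), beside 0.561% of all symbols called higher. Groups did not overlap in 3 of the 5, all with ConA+SIM higher, beside 9.16% of all symbols. The part of neutrophil, erythroid and platelet RNA in the results was not tested. Of 13 listed CD4 T cell markers, 10 had a row, and each of these had counts in all libraries. The T cell receptor constant genes Trac, Trbc1 and Trbc2 had no row. The summed level of the 10 was 3804 to 4174 CPM in ConA+SIM and 2660 to 4099 CPM in ConA. Cd4 ran from 441 to 562 CPM in ConA+SIM and from 485 to 767 CPM in ConA. The sum of the CD8 genes Cd8a and Cd8b1 was 26.3 to 54.1 CPM in ConA+SIM and 4.73 to 33.1 CPM in ConA.

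Among the 7 genes Cd69 was higher in ConA+SIM in the main test, and the other 6 did not pass the test across all genes. Cd69 passed in 8 of 19 alternative settings, and in none that left out 1 library. With the length and GC offset its log2 fold change was 0.54 ± 0.36 and did not pass. Rgs1, with Cd69 the other gene at higher values in each ConA+SIM library than in any ConA library, was 2.03-fold higher by group means. The liver residence genes Cxcr6 and Itga1 had higher means with overlapping groups, Itgae was near the detection floor in most libraries, and the egress genes S1pr1 and Klf2 had overlapping groups. So 1 of 7 genes was called (edgeR quasi-likelihood test, adjusted p under 0.05), beside 0.542% of all tested genes. Groups did not overlap in 2 of the 7 genes, both with ConA+SIM higher, beside 9.18% of tested genes with ConA+SIM higher and 8.57% with ConA+SIM lower.

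**Figure D1:**
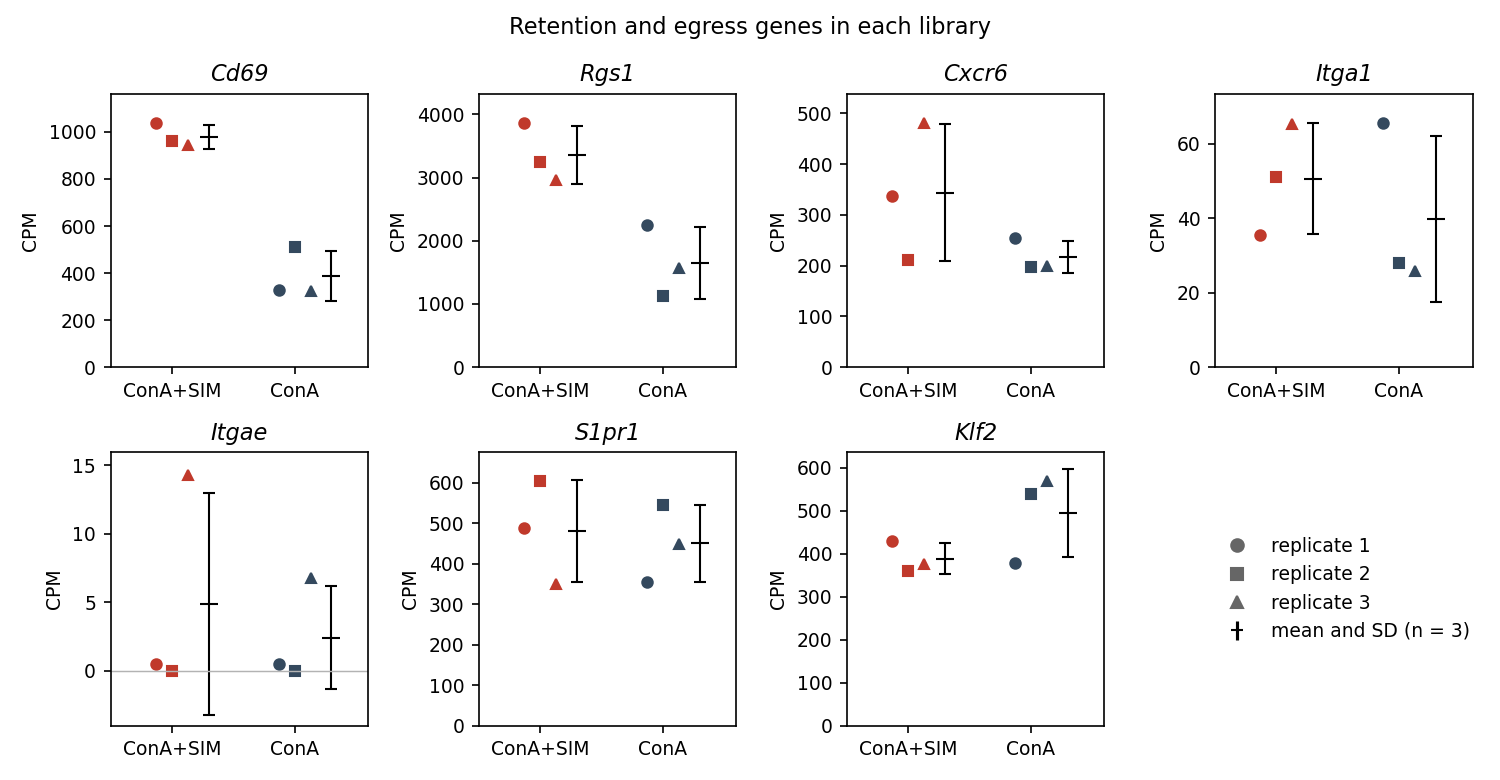
Expression of the 7 genes in CPM in each library, ConA+SIM in red and ConA in dark blue, with replicates by symbol and bars for the mean and SD (n = 3). Cd69 lay between 944 and 1039 CPM in ConA+SIM and between 325 and 510 CPM in ConA, whereas the groups of S1pr1 and Klf2 overlapped.

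Cd69 stood at 1039, 959 and 944 CPM in ConA+SIM replicates 1 to 3, against 326, 510 and 325 CPM in ConA replicates 1 to 3. The ConA+SIM libraries were close together, with a coefficient of variation of 5.2%, and the lowest of them lay far above the highest ConA library, replicate 2. The log2 fold change was 1.34 ± 0.22 (SE; edgeR adjusted p = 0.0397), which was rank 44 of the p-values of all tested genes. The gene lies on chromosome 6 at 129267324 to 129275375 (GRCm38, as are all positions) and encodes a C-type lectin-like receptor. It was among the most abundant transcripts of these cells, at rank 189 of 10509 by mean CPM. ConA replicate 2 was the ConA library highest in Cd69. Its summed B cell and plasma cell markers were highest among ConA libraries (1286 CPM, against 114 and 246 CPM in replicates 1 and 3). In ConA+SIM that sum was 534, 585 and 971 CPM in replicates 1 to 3. Activated B cells express Cd69 as well. The gate for CD3 and CD4 is meant to exclude B cells, yet their summed markers were present in every library. The part of B cell RNA in the Cd69 values was not tested. The call was lost with the replicate block (adjusted p = 0.285), with scaling by T cell marker genes (0.93, adjusted p = 0.338), once the genes of ribosomal proteins were removed (adjusted p = 0.127) and with the length and GC offsets described further on. It was also lost when any 1 library was left out, with log2 fold changes from 1.22 without ConA replicate 1 to 1.58 without ConA replicate 2 and adjusted p from 0.108 to 0.249.

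Rgs1, on chromosome 1 at 144244669 to 144249104, was the most abundant of the 7 genes. It stood at 3865, 3240 and 2959 CPM in ConA+SIM replicates 1 to 3 and at 2249, 1130 and 1569 CPM in ConA replicates 1 to 3. All ConA+SIM libraries lay above all ConA libraries, and the gap to the nearest, ConA replicate 1, was smaller than the range within ConA. The log2 fold change of 1.02 ± 0.24 did not pass (edgeR adjusted p = 0.173). DESeq2 and limma-voom called it, at adjusted p = 7.82e-05 and 0.00464, with log2 fold changes of 1.01 and 1.06; these tools called 5.37% and 1.09% of all genes. Among ConA libraries Rgs1 was lowest in replicate 2, where Cd69 was highest, so the ratio of Cd69 to Rgs1 CPM was 0.269, 0.296 and 0.319 in ConA+SIM and 0.145, 0.451 and 0.207 in ConA, with overlapping groups.

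Cxcr6, on chromosome 9 at 123806477 to 123811754, had 338, 212 and 482 CPM in ConA+SIM replicates 1 to 3, against 254, 198 and 200 CPM in ConA replicates 1 to 3. ConA+SIM replicate 2 fell within the ConA range, and the other ConA+SIM libraries lay above it. The log2 fold change was 0.66 ± 0.31 (edgeR adjusted p = 0.60), and it ran from 0.34 without ConA+SIM replicate 3 to 0.92 without ConA+SIM replicate 2. Cxcr6 lies within the span of Fyco1 on the opposite strand, with 0 annotated exon bases in common. CXCR6 is also strongly expressed by NKT cells and liver ILC1. The summed NKT cell markers were 968 to 1222 CPM in ConA+SIM and 771 to 1016 CPM in ConA. Of 5 tested, 4 had positive and 1 a negative fold change (median 0.75), and 0 were called. Groups did not overlap in 3 of them, all with ConA+SIM higher, beside 9.16% of all symbols. The defining NKT cell factor Zbtb16 was 36.4, 91.2 and 27.4 CPM in ConA+SIM and 37.3, 75.4 and 39.4 CPM in ConA. Of NK cell and ILC1 markers, 7 of 12 could be tested, and Ncr1 had 0 counts in all 6 libraries. The list summed to 477 to 753 CPM in ConA+SIM and 260 to 498 CPM in ConA. Of the 7 tested, 6 had positive and 1 a negative fold change (median 0.53), with 0 called. In 2 of the 7, all ConA+SIM libraries lay above all ConA libraries, beside 9.16% of all symbols. Klrb1c, whose product is the NK1.1 antigen used to exclude cells from the sort, had 43.5, 43.5 and 39.0 CPM in ConA+SIM and 6.68, 17.6 and 20.0 CPM in ConA, groups that did not overlap (log2 fold change 1.51 ± 0.77, adjusted p = 0.668). The part of these cells in the Cxcr6, Cd69 and Rgs1 values was not tested. In RNA from sorted cells, fewer cells of a type and less RNA per cell cannot be told apart.

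The integrin alpha chains were much lower. Itga1, on chromosome 13 at 114958079 to 115101964, had 35.6, 51.0 and 65.3 CPM in ConA+SIM replicates 1 to 3 and 65.6, 28.0 and 25.7 CPM in ConA replicates 1 to 3. ConA replicate 1 was as high as the highest ConA+SIM library, so the groups overlapped (log2 fold change 0.35 ± 0.57), and the log2 fold change ran from 0.12 without ConA+SIM replicate 3 to 0.90 without ConA replicate 1, and was 0.14 and 0.13 without ConA replicates 2 and 3. Markers of stellate cells, which also carry this chain, were low. Of 9 markers, 6 had 0 counts in every library, Lrat and Pdgfrb among them. The list summed to at most 11.5 CPM in ConA+SIM and 8.19 CPM in ConA. Markers of NK cells and ILC1 summed to 477 to 753 CPM in ConA+SIM and 260 to 498 CPM in ConA. Those of liver sinusoidal endothelium summed to 510 to 1054 CPM in ConA+SIM and 542 to 3085 CPM in ConA. The part of any of these cells in the Itga1 values was not tested. Exons of Itga1 share 685 annotated bases with the same-strand gene model Gm49395, so the count of Itga1 is uncertain.

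Itgae, on chromosome 11 at 73090505 to 73147449, was the one gene of the 7 whose symbol was split over a pair of rows. The row Itgae held 9, 0 and 267 counts in ConA+SIM replicates 1 to 3 and 12, 0 and 172 counts in ConA replicates 1 to 3. The row Itgae_1 held 0, 0 and 90 counts in ConA+SIM and 2, 4 and 292 counts in ConA. In each group almost all reads came from replicate 3, and replicate 2 held 0 counts in ConA+SIM and 4 in ConA over both rows. The log2 fold change was 1.02 ± 2.98 for the row Itgae and 0.035 ± 2.96 for the sum of both rows, which stood at 0.480, 0 and 19.1 CPM in ConA+SIM and 0.604, 0.202 and 18.3 CPM in ConA. The spread between libraries of a group was larger than the difference between the group means, at a coefficient of variation of 165% in ConA+SIM and 155% in ConA for the row Itgae.

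S1pr1, the exit receptor, on chromosome 3 at 115710433 to 115715055, had 487, 604 and 351 CPM in ConA+SIM replicates 1 to 3, against 354, 546 and 450 CPM in ConA replicates 1 to 3. The groups covered nearly the same range, with replicate 2 highest in both. The log2 fold change was 0.094 ± 0.26 (edgeR adjusted p = 0.999), so the higher Cd69 transcript in ConA+SIM stood beside an S1pr1 transcript without a called change. CD69 acts on the S1PR1 protein, which these data did not measure.

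Klf2, on chromosome 8 at 72319062 to 72321654, had 429, 360 and 376 CPM in ConA+SIM replicates 1 to 3, against 378, 539 and 569 CPM in ConA replicates 1 to 3. ConA replicate 1 fell among the ConA+SIM libraries and the other ConA libraries lay above them all. The log2 fold change of -0.35 ± 0.22 did not pass (edgeR adjusted p = 0.809); it was -0.52 without ConA replicate 1 and -0.21 without ConA replicate 3. Per 1000 summed CPM of the T cell marker genes, Klf2 was 104, 86.2 and 98.9 in ConA+SIM and 126, 203 and 139 in ConA. On that scale its groups did not overlap, whereas in CPM they did. Cd69 and Rgs1 were higher in ConA+SIM without overlap on that scale, and S1pr1, Cxcr6, Itga1 and Itgae overlapped. The shares of all genes without overlap on that scale were not counted, so these separations cannot be set beside a background. Of the 10 marker genes themselves, 3 were higher and 1 was lower in ConA+SIM without overlap. With libraries scaled by those genes the log2 fold change of Klf2 was -0.70 (edgeR adjusted p = 0.365), where the median of all genes was -0.40. Statins are known to induce Klf2 in cultured endothelial cells, where the kinase ERK5 acts through MEF2 factors on a site in the Klf2 promoter. Here the mean of Klf2 was lower in ConA+SIM, and its log2 fold change was negative in the 19 alternative settings, which reuse the same libraries. With the length and GC offset it was -0.11 ± 0.32. Whether simvastatin acted on Klf2 through ERK5 and the MEF2 site was not tested. The promoter is shown for that site, from RefSeq on GRCm38.p6, chr8:72318812-72319111, plus strand, 250 bases before to 50 bases after the start site, with the match to the MEF2 motif (CTA, any 4 bases, TAG) in capitals:
Klf2: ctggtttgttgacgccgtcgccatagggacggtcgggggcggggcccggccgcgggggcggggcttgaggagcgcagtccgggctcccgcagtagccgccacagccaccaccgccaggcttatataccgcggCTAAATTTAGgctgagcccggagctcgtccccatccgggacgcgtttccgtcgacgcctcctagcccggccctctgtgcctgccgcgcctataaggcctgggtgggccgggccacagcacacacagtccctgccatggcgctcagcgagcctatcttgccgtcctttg

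The match CTAAATTTAG begins 118 bases before the start site. The motif, searched on both strands, was found in 3.69% of 32851 RefSeq promoter windows of the same length. A match is a description of letters and not a bound site. The same window holds 2 matches to the GC box GGGCGG, found in 35.7% of windows, and 1 to CACCC, the core of KLF motifs, found in 57.5%. Promoters of 3 of the 7 genes were matched, and those of Cxcr6 and Itga1 hold no MEF2 match. The ERK5 gene Mapk7 averaged 12.5 ± 12.6 CPM in ConA+SIM and 18.1 ± 5.84 CPM in ConA (SD, n = 3 each), and its activating kinase gene Map2k5 19.6 ± 12.4 CPM in ConA+SIM and 21.6 ± 3.38 CPM in ConA. Mef2a averaged 141 ± 16.4 CPM in ConA+SIM and 123 ± 48.5 CPM in ConA, and Mef2d 144 ± 37.3 CPM in ConA+SIM and 201 ± 44.7 CPM in ConA. None of these genes passed.

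S1pr1 and Klf2 are also endothelial genes. The gate for CD3 and CD4 is meant to exclude endothelial cells, yet summed markers of liver sinusoidal endothelium were present in every library and varied between libraries. All 15 of its markers could be tested, and none had 0 counts in every library. All 15 had lower values in ConA+SIM (median log2 fold change -0.84, beside -0.042 for all tested genes). Of the 15, 0 were called, beside 0.561% of symbols called higher and 0% called lower. Together they gave 510, 1054 and 984 CPM in ConA+SIM replicates 1 to 3 and 542, 3085 and 1027 CPM in ConA replicates 1 to 3. ConA replicate 2 thus stood apart, and it was also the ConA library with the most S1pr1. Without it the log2 fold change of S1pr1 was 0.24 and that of Klf2 -0.30, in both cases without a call, and the part of endothelial RNA in these values was not tested. Macrophage and monocyte markers summed to 1019 to 2524 CPM in ConA+SIM and 1518 to 3154 CPM in ConA. Of 12 tested, 9 had negative and 3 positive fold changes (median -0.97). Of these 0 were called, beside 0.561% of symbols called higher and 0% called lower. Cd68 and C1qa were lower in all ConA+SIM libraries than in any ConA library, and Ly6c2 was higher. These are 2 and 1 of the 12 genes, beside 8.58% of all symbols lower and 9.16% higher without overlap.

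Ratios within a library do not depend on how libraries are scaled. They do keep each library's trend with GC content, which was positive in ConA and negative in ConA+SIM libraries. Cd69 (41.5% GC), S1pr1 (48.8%) and Klf2 (61.6%) differ in GC content, and the ratios were not corrected for it. With the length and GC offset the log2 fold changes were 0.54 for Cd69, 0.39 for S1pr1 and -0.11 for Klf2. For each S1pr1 CPM there were 2.13, 1.59 and 2.69 CPM of Cd69 in ConA+SIM replicates 1 to 3, against 0.920, 0.933 and 0.723 in ConA replicates 1 to 3. For each Klf2 CPM there were 2.42, 2.66 and 2.51 CPM of Cd69 in ConA+SIM and 0.863, 0.946 and 0.572 in ConA. Both ratios were higher in every ConA+SIM library than in any ConA library. A ratio of 1 marks no balance, since the transcripts differ in length (Cd69 1687 nt, S1pr1 3046 nt, Klf2 1847 nt). Per kilobase of transcript, Cd69 was above S1pr1 in ConA already, at 229 ± 62.9 against 148 ± 31.5 CPM (SD, n = 3), and their ranges did not overlap. These ratios rest on Cd69, whose rise chose the set, and are given as a description. The ratio of Cxcr6 to S1pr1 did not separate the groups, at 0.694, 0.351 and 1.37 in ConA+SIM and 0.716, 0.363 and 0.444 in ConA.

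**Figure D2:**
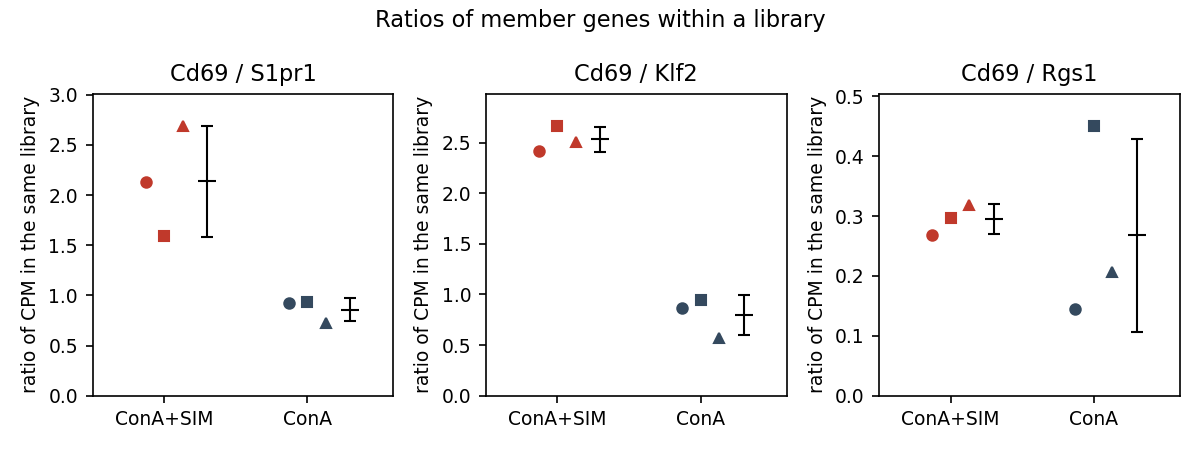
Ratio of Cd69 to S1pr1, to Klf2 and to Rgs1 in CPM within each library, ConA+SIM in red and ConA in dark blue, with mean and SD (n = 3). The ratios to S1pr1 and Klf2 were 1.59 or more in ConA+SIM and 0.946 or less in ConA, and the ratio to Rgs1 overlapped. Ratios were not corrected for GC content or transcript length.

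Per kilobase of transcript, which allows genes to be compared, the order of levels differed between the groups. In ConA+SIM Rgs1 led with 873 ± 121 CPM per kilobase, followed by Cd69 with 581 ± 30.2, Klf2 with 210 ± 19.5, Cxcr6 with 181 ± 71.2 and S1pr1 with 158 ± 41.6 (SD, n = 3). Itga1 (4.61 ± 1.35) and Itgae (1.28 ± 2.11) followed far below. The ranges of Klf2, Cxcr6 and S1pr1 overlapped with their neighbours in this order, and those of Rgs1 and Cd69 were clear of all others. In ConA Rgs1 led with 429 ± 147 CPM per kilobase, and Klf2 with 268 ± 55.5 preceded Cd69 with 229 ± 62.9, with overlapping ranges among these genes. S1pr1 with 148 ± 31.5 and Cxcr6 with 115 ± 16.6 overlapped as well. Cd69 therefore stood level with Klf2 in ConA and above it in ConA+SIM.

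Fold changes were also set beside the GC content of the transcripts. Rgs1, with 37.4% GC, and Cd69, with 41.5%, had the largest values among the 6 genes other than Itgae, Itga1 (42.8%), Cxcr6 (43.1%) and S1pr1 (48.8%) lay between, and Klf2, with 61.6% GC, had the lowest. Itgae, with 51.4% GC, had a value near that of Rgs1 (1.02) but an SE of 2.98. Among genes with a mean of at least 10 CPM, the median log2 fold change was 0.60 for 420 genes under 40% GC, 0.27 for 1683 genes of 40% to 45%, -0.0078 for 2308 genes of 45% to 50%, and -0.22, -0.26 and -0.21 for genes of 50% to 55%, 55% to 60% and 60% to 80%, so the medians fell up to about 50% GC and were similar above it. Cd69 lay above the upper quartile of its GC class, 0.76, whereas Rgs1, at 1.02, was just inside the upper quartile of its class, 1.05. Klf2 and S1pr1 lay inside the middle 50% of theirs. Transcript length had a slope too, with a median of 0.58 for 515 genes under 1000 nt and -0.35 for 1041 genes over 6000 nt; the chosen transcript of Cd69 is 1687 nt long and that of Rgs1 3841 nt. When each library's trend with length was removed, Cd69 stood at 1.14 ± 0.37 and Rgs1 at 1.27 ± 0.38, and with GC content also removed at 0.54 ± 0.36 (adjusted p = 0.999) and 0.36 ± 0.37 (adjusted p = 0.999). Klf2 then stood at -0.11, Cxcr6 at -0.058 and S1pr1 at 0.39. The part of length and GC content in the group difference was not tested beyond these values.

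**Figure D3:**
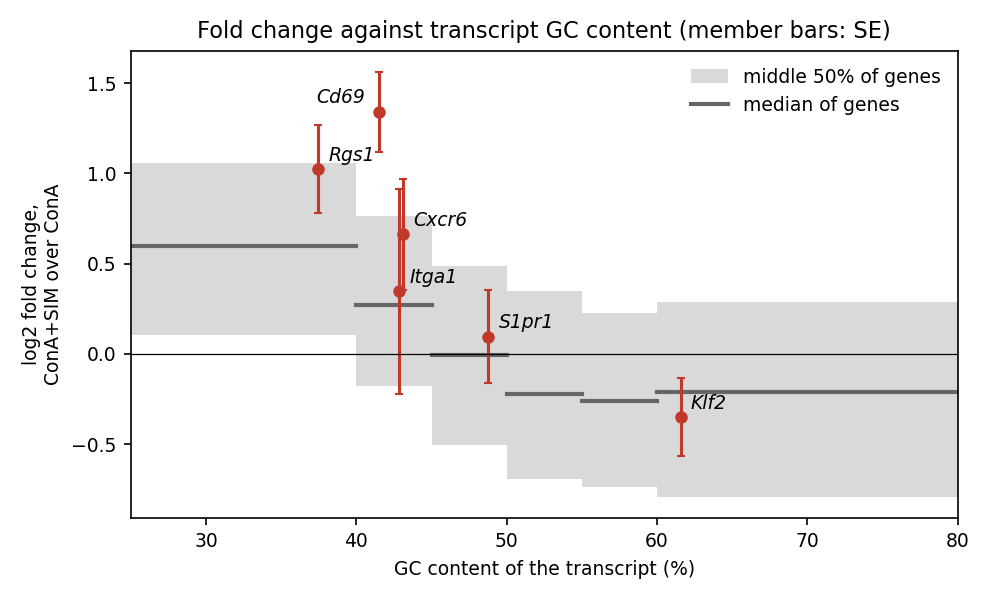
Log2 fold change of ConA+SIM over ConA against the GC content of the transcript, with the median (line) and middle 50% (shading) of genes with at least 10 CPM in 6 classes, and 6 of the 7 genes with SE bars (Itgae, with an SE of 2.98, is left out). The median ran from 0.60 in the lowest class to -0.26 at 55% to 60% GC and -0.21 in the highest class, and Cd69, at 1.34, lay above the shading.

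**Figure D4:**
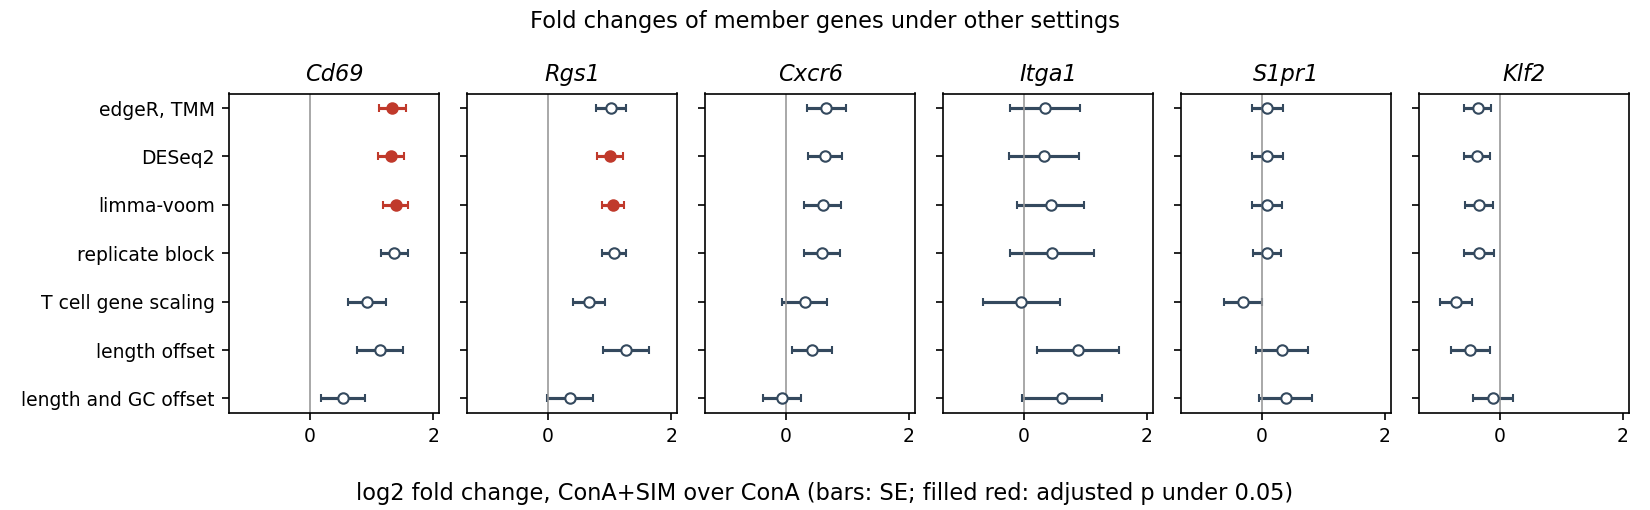
Log2 fold change with SE of 6 genes under 7 settings, from the main test at the top to the length and GC offset at the bottom, red where the adjusted p was under 0.05. Cd69 kept a positive value in each, from 1.39 with limma-voom to 0.54 with the length and GC offset.

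Among all genes with a mean of at least 10 CPM, those closest to Cd69 over the 6 libraries were the kinase gene Stk26 (Pearson r = 0.992), the ribosomal protein gene Rpl34 (0.989), the zinc finger gene Zfp607a (0.988), Ms4a6c (0.987) and the leukocyte tetraspanin gene Cd53 (0.986), out of 8668 compared. All 5 had higher means in ConA+SIM, with log2 fold changes from 0.94 to 1.91. This direction follows from choosing them by likeness to Cd69 and is not a separate result. The genes closest to S1pr1 were Rere (0.984), Mindy1 (0.983), Bbx (0.970), the cytokine receptor gene Il27ra (0.968) and the vesicle coat gene Sec24a (0.956), with log2 fold changes from -0.018 to 0.37. Between the members, r was 0.72 for Cd69 and Rgs1, 0.30 for Cd69 and S1pr1, -0.51 for Cd69 and Klf2, 0.25 for S1pr1 and Klf2, and -0.93 for Klf2 and Itga1, over 6 libraries that share depth, group and composition.

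The wider egress pathway gave no called gene. Of 24 other genes of S1P sensing and metabolism, 18 could be tested, 0 passed in either direction, beside 0.561% of symbols called higher and 0% called lower, and the median log2 fold change was -0.23. Rgs2, a relative of Rgs1 on the same chromosome, came nearest, with 1033, 1283 and 882 CPM in ConA+SIM replicates 1 to 3 and 517, 518 and 584 CPM in ConA replicates 1 to 3 (log2 fold change 0.98 ± 0.19, edgeR adjusted p = 0.0712). Its groups were clear of each other. The inhibitory G protein gene Gnai3 averaged 475 ± 130 CPM in ConA+SIM and 279 ± 23.3 CPM in ConA, whereas Gnai2, through which S1PR1 also signals, averaged 722 ± 150 CPM in ConA+SIM and 964 ± 228 CPM in ConA. Akt1, a kinase below the receptor, averaged 132 ± 62.5 CPM in ConA+SIM and 251 ± 80.6 CPM in ConA. Grk2, the kinase that desensitizes S1PR1 in blood, averaged 626 ± 128 CPM in ConA+SIM and 741 ± 113 CPM in ConA. S1pr4, another S1P receptor gene, averaged 120 ± 42.0 CPM in ConA+SIM and 74.8 ± 15.5 CPM in ConA, with overlapping groups. S1pr2 ran from 4.48 to 22.6 CPM in ConA+SIM and from 0.0862 to 27.3 CPM in ConA, also with overlapping groups. S1pr5 had counts in ConA replicate 1 alone, at 9.10 CPM. The S1P lyase gene Sgpl1 averaged 95.8 ± 20.4 CPM in ConA+SIM and 91.4 ± 32.4 CPM in ConA, and the kinase gene Sphk1 and the transporter gene Spns2 had 0 counts in all libraries.

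The recirculation genes around KLF2 and FOXO1 split about evenly. Of 24, 22 could be tested, with 9 positive and 13 negative fold changes, 0 passed, beside 0.561% of symbols called higher and 0% called lower, and the median log2 fold change was -0.18. Ccr7, a chemokine receptor gene that guides T cells into lymph nodes, averaged 511 ± 207 CPM in ConA+SIM and 618 ± 298 CPM in ConA, with overlapping groups. Foxo1 itself averaged 128 ± 34.2 CPM in ConA+SIM and 115 ± 56.0 CPM in ConA. The smallest p-values of the list were those of Ly6c2, a surface antigen of effector T cells and monocytes (log2 fold change 0.99 ± 0.26, adjusted p = 0.226), Klf13 (-1.18 ± 0.43, adjusted p = 0.413) and the naive T cell factor Tcf7 (-0.71 ± 0.26, adjusted p = 0.428). Rasgrp2 is an example of split symbols, since its plain row was empty and the row Rasgrp2_1 held 746 to 1115 counts in ConA+SIM and 1675 to 1910 in ConA.

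The residency list was equally mixed. Of 39 genes, 36 could be tested, and 16 had higher and 20 lower values. Of these 0 passed, beside the same shares of all symbols, and the median log2 fold change was -0.18. Zfp683, which encodes the residency factor Hobit, had no row. Prdm1, encoding Blimp-1, averaged 86.9 ± 52.4 CPM in ConA+SIM and 128 ± 43.9 CPM in ConA, and Runx3 3.20 ± 1.05 CPM in ConA+SIM and 11.8 ± 9.81 CPM in ConA. After Rgs2, the smallest p-values were those of Rbpj, the DNA-binding partner of Notch receptors (124 ± 20.1 CPM in ConA+SIM and 231 ± 12.2 CPM in ConA, log2 fold change -0.89 ± 0.25, adjusted p = 0.278), and the inhibitory receptor gene Ctla4 (499 ± 57.1 CPM in ConA+SIM and 306 ± 58.7 CPM in ConA, log2 fold change 0.71 ± 0.22, adjusted p = 0.341). Over the list, groups did not overlap in 4 genes with higher and 6 with lower values in ConA+SIM, beside 9.16% and 8.58% of all symbols.

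The partners of the retention receptors were present. Itgb1, the beta chain of CD49a, averaged 1261 ± 350 CPM in ConA+SIM and 997 ± 184 CPM in ConA, and Itgb7, that of CD103, 558 ± 94.1 CPM in ConA+SIM and 548 ± 92.1 CPM in ConA, so both beta chains far exceeded their alpha chains Itga1 and Itgae. The ligand gene Cxcl16 reached at most 11.2 CPM in ConA+SIM and 12.0 CPM in ConA. Among 15 tested integrin and ligand genes, 0 passed, beside 0.561% of symbols called higher and 0% called lower, 10 had negative fold changes and the median was -0.45. Groups did not overlap in 2 of them with ConA+SIM higher and 5 with ConA+SIM lower, beside 9.16% and 8.58% of all symbols. The smallest p-values were those of Rap1a, a GTPase that activates integrins (1.04 ± 0.22, adjusted p = 0.102), the talin gene Tln1 (-1.02 ± 0.23, adjusted p = 0.129) and Itgb2 (-0.65 ± 0.19, adjusted p = 0.282). Itgb2, the beta chain of LFA-1, stood at 527, 580 and 441 CPM in ConA+SIM and 899, 743 and 792 CPM in ConA.

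RGS proteins other than Rgs1 numbered 14, with 7 tested and 0 called, beside 0.561% of symbols called higher and 0% called lower. After Rgs2 the smallest p-values were those of Rgs3 (log2 fold change 0.41 ± 0.40) and Rgs19 (-0.41 ± 0.58).

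Cd69 lies in the NK gene complex beside other C-type lectin genes, and of 16 of these 10 could be tested. None passed, beside 0.561% of symbols called higher and 0% called lower, 7 had positive and 3 negative fold changes, and the median log2 fold change was 0.86. In 4 genes all ConA+SIM libraries lay above all ConA libraries, beside 9.16% of all symbols. Clec2d, whose product binds the NK1.1-related receptor NKR-P1D, had 152, 136 and 98.8 CPM in ConA+SIM replicates 1 to 3 and 72.7, 30.6 and 49.5 CPM in ConA replicates 1 to 3 (log2 fold change 1.34 ± 0.41, adjusted p = 0.330). Klrd1 (CD94) had 178, 172 and 139 CPM in ConA+SIM and 15.3, 68.7 and 18.5 CPM in ConA (2.26 ± 0.58, adjusted p = 0.212), and its partner chain gene Klrc1 (NKG2A) a log2 fold change of 1.19 ± 0.46 (adjusted p = 0.458). Klrd1, Klrk1 and Klrb1c of this list also stand among the NK cell markers above.

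**Figure D5:**
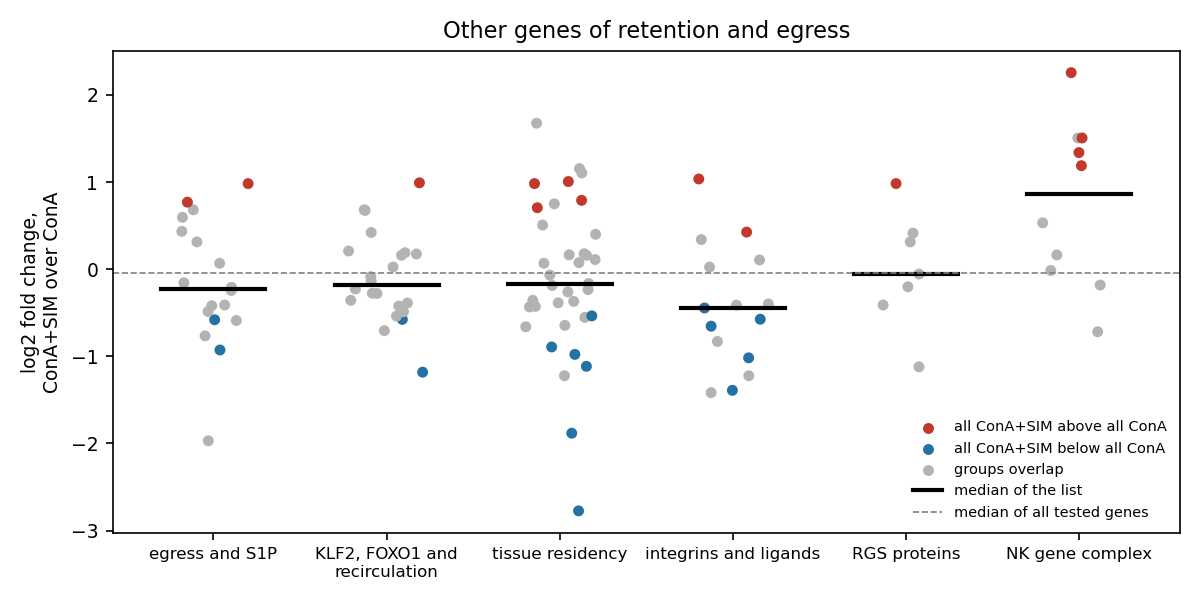
Log2 fold change of ConA+SIM over ConA for each tested gene of 6 lists (points; red and blue where the groups did not overlap), with the list median (black) and the median of all tested genes (dashed, -0.042). List medians ran from -0.45 for integrins and ligands to 0.86 for the NK gene complex, and no point passed the adjusted threshold.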

How the data were processed

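RNA sequencing libraries of sorted liver CD4+ T cells, 3 per group, were compared. HISAT2 2.1.0 and the build GRCm38 were used, per the submitters' processing notes; no source used here names the counting tool, annotation or strand setting, and antisense reads cannot be told apart. Raw counts by gene symbol were deposited by the authors in a single table, where 1618 rows carry a copy suffix; the columns bear the sample titles and 0 were left unused. Members and lists were chosen with earlier results of these data known.

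Genes were kept with filterByExpr, scaled with TMM and tested with the quasi-likelihood F test of edgeR 4.0.16 (R 4.3.3; robust, no covariates), ConA+SIM over ConA, with Benjamini-Hochberg adjustment at 0.05. SE is the log2 fold change divided by the root of F. Lists, without members, used counts summed over the rows of a symbol (10336 tested; 21 of 236 listed symbols had copies), a choice made after seeing the data. Named genes were the 7 members, up to 3 genes per list with the smallest p, their partners and ligands, and the 5 genes most like Cd69 and S1pr1 by Pearson r of log2 CPM. Others were chosen after their values were seen. Transcript length and GC content came from 1 GENCODE M21 transcript per gene, for 98.4% of tested genes; trends were fitted on 8553 genes with at least 10 CPM (mgcv 1.9.3). Alternatives were RLE scaling, scaling by 10 CD4 T cell marker genes, no filter, 5 CPM in 3 libraries, DESeq2 1.42.0, voom with and without quality weights (limma 3.58.1), a replicate block, each library left out, length and GC offsets, removal of ribosomal protein genes or of liver cell, red cell and antibody genes, and, added after seeing the data, summed copy rows. The procedure was checked on simulated counts. Between libraries of the same group, chi-square statistics were 142 to 298 times their degrees of freedom, so no pair within a group was a duplicate.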

Additional observations from a re-analysis of the deposited data

How the results depend on the processing

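The 57 genes called in the main test became 0 with the CD4 T cell marker scaling (which moved the median of all genes from -0.041 to -0.40), with the replicate block, with the transcript length offset, with the length and GC offset and with ribosomal protein genes left out, 555 with DESeq2, 115 with limma-voom and 114 with quality weights; leaving out 1 library gave 0 to 3. Those calls were 356 higher and 199 lower with DESeq2 and 57 higher and 0 lower in the main test. Cd69 kept a positive value in all 19 alternatives and was called in 8. It was not called with marker scaling (0.93, adjusted p = 0.338), the replicate block (1.37, adjusted p = 0.285), the length offset (1.14), the length and GC offset (0.54) or ribosomal genes left out (1.34, adjusted p = 0.127), nor without any 1 library (1.22 to 1.58, adjusted p = 0.108 to 0.249). Rgs1 was called with DESeq2 (1.01), limma-voom (1.06) and quality weights (1.09, adjusted p = 0.0109), and its value without 1 library was 0.80 to 1.30. S1pr1 turned to -0.30 with marker scaling and -0.029 with quality weights, and without 1 library it ran from -0.10 to 0.28. Klf2 stayed negative in all 19 alternatives, from -0.70 with marker scaling to -0.11. Cxcr6 turned to -0.058 with the length and GC offset and Itga1 to -0.037 with marker scaling. Itgae ran from -3.30 without ConA+SIM replicate 3 to 4.23 without ConA replicate 3, and could not be tested at 5 CPM in 3 libraries. The causes were not tested. Correlations of deviations were 0.011, 0.0088 and 0.033 for same-numbered samples and -0.038 to 0.018 for other pairs across groups. With 3 samples per group these values cannot tell whether same-numbered samples share a batch. The labels state no pairing, so the replicate block rests on the sample numbers alone. With 3 samples per group and 1 library decisive for several values, small differences were not detectable.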
